A study of Mus musculus with 6 samples.

Results

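The identity of the pancreatic β cell is held by a small set of transcription factors, and 10 of their genes were examined here: Pdx1, Neurod1, Foxo1, Mafa, Nkx6-1, Nkx2-2, Isl1, Pax6, Rfx6 and Insm1. The members were a fixed list of names, chosen with earlier results of these data known. The study had already named Pdx1, Neurod1 and Foxo1 as reduced in this comparison, so counts over the list are not independent evidence. In the study's quantitative RT-PCR the fall of Foxo1 was significant, and that of Pdx1 was not. Of the 19937 genes read through probe sets that carry 1 symbol, each by its brightest, the members are 10, and each member had exactly 1 such probe set. All 10 had a group mean above 4.63, the 20th percentile of all deposited log2 values and a mark of the dim end of the arrays. Being above this mark does not show that a probe set read above background, for which the deposited values used here hold no measure.

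Islets came from 16-week-old C57BL/6 mice, backcrossed for at least 3 generations from an outbred stock, and every mouse received doxycycline for 24 hours. The genotype was Ins2-rtTA in 3 control samples and Ins2-rtTA;tetO-Sox17 in 3 Sox17-GOF samples, so that the doxycycline-bound transactivator, made from an insulin gene promoter, turned on Sox17 in insulin-producing cells. By these labels both groups share the driver and the drug. A legend of the study on Sox17 protein after the same time on doxycycline names tetO-Sox17 mice as controls instead, and if that held for these arrays the driver would not be shared. A group with tetO-Sox17 alone was not analysed here. The methods name male mice for this driver and treat the 3 samples of a genotype as independent, but whether a sample held islets of 1 mouse or several is not given in the sources used here. Each sample was hybridised to 1 Affymetrix Mouse Gene ST array, and values are log2 expression after RMA, so that a difference of 1 is a doubling. RNA was taken from whole islets, in which fewer β cells and less RNA per β cell cannot be told apart.

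These factors bind DNA and switch on insulin and the genes of glucose sensing and secretion, while holding down the programs of other islet cells. PDX1, NKX6-1 and MAFA are largely restricted to β cells in the adult mouse islet, apart from PDX1 in δ cells. NEUROD1, ISL1, PAX6, RFX6, INSM1 and NKX2-2 also work in other hormone cells, so their signal in whole islets has several sources. FOXO1 is a forkhead factor that insulin signalling drives out of the nucleus, and it protects the β cell state under metabolic stress.

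The promoters of the members were read to show the DNA in front of the genes whose level differed most, and that of Nkx2-2, which did not pass, for comparison. RefSeq sequences on GRCm38.p6 were available for 8 of the 10 members, in 9 windows because Pax6 had 2. Each line below gives the 250 bases before the annotated start, 5′ to 3′ on the strand of the gene. Capitals mark the core of SOX sites, ACAAT or its reverse ATTGT, and the E-box CANNTG, the class of site bound by NEUROD1 and other basic helix-loop-helix factors.
Pdx1 (chr5:147269847-147270096, forward strand): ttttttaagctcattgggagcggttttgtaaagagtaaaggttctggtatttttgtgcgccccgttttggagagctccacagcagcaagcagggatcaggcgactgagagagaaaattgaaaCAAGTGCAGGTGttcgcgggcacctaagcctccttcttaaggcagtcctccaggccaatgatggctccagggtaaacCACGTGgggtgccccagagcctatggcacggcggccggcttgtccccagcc
Neurod1 (chr2:79456637-79456886, reverse strand): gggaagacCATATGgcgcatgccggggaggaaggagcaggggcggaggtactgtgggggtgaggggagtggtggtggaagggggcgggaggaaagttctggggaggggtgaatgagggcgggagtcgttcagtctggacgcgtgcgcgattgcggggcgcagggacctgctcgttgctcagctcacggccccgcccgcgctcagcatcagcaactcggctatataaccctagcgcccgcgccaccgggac
Foxo1 (chr3:52268087-52268336, forward strand): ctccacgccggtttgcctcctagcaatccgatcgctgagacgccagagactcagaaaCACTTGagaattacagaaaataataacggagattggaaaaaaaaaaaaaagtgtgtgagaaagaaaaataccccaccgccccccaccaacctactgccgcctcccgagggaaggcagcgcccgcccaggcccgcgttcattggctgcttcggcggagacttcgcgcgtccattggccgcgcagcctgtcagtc
Rfx6 (chr10:51685268-51685517, forward strand): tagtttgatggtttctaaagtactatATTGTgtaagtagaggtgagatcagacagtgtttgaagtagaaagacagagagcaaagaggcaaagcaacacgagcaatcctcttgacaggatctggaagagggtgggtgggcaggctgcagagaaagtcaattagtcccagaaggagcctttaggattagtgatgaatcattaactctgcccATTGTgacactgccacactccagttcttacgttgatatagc
Nkx2-2 (chr2:147186403-147186652, reverse strand): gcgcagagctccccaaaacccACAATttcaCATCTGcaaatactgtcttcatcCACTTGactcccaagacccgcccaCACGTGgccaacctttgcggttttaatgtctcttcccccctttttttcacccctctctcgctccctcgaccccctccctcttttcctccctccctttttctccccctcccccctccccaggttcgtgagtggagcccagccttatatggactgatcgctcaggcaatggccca

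The SOX core was found in the windows of 3 of the 8 members, Rfx6 with 2 matches, Nkx2-2 with 1 and Pax6 with 1. Of all 32851 promoter windows of this length, 27.7% held it. The window of Pdx1 held no SOX core and 3 E-boxes, 2 of them side by side at 128 and 122 bases before the start and 1, CACGTG, at 51 bases. An E-box was present in the windows of 6 of the 8 members and in 66.2% of all windows. The homeodomain core TAAT or ATTA, not capitalised, was present for 5 of the 8 and in 54.9% of all windows. No match of 1 motif overlapped a match of another in these windows. A match is a description of the letters and not a binding site.

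Foxo1 and Pdx1 fell in Sox17-GOF islets, by 0.51 and 0.47 on the log2 scale, and the mean of each of the 10 genes was lower there than in control islets. At an adjusted p under 0.05 from limma, 2 of the 10 were lower, 8 did not pass and 0 were higher. Across all genes, 2.44% were called lower and 2.77% higher. For 5 of the 10 the groups did not overlap, with all Sox17-GOF arrays on the lower side, which held for 14.2% of all genes. The median log2 difference was -0.17 over the 10 genes and -0.01 over all genes. A lower mean in Sox17-GOF islets was found for 52.9% of all genes. The induced gene, Sox17, was higher by 0.67 (SE, the standard error, 0.09, limma adjusted p = 0.00876). Its group means were 5.64 in control and 6.31 in Sox17-GOF islets, beside array medians of 6.31 to 6.41. It is not known that this probe set read above background, and whether it reads the transgene was not tested.

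**Figure D1:**
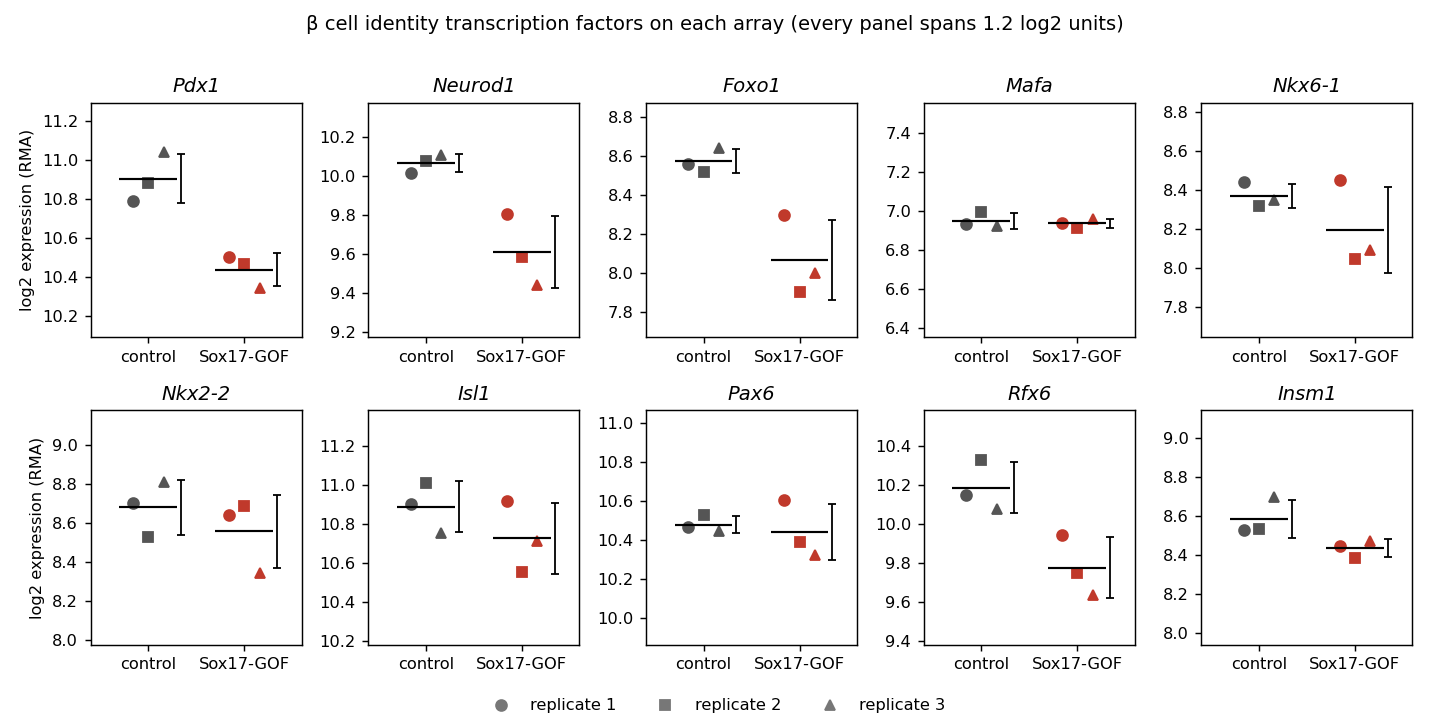
Log2 expression (RMA) of each of the 10 factors on every array, control in grey and Sox17-GOF in red, with the group mean (line) and SD (bar, n = 3). Symbols mark the replicate numbers, and every panel spans the same range. The groups are apart for Pdx1, Neurod1, Foxo1, Rfx6 and Insm1 and overlap for the other 5.

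Among the factors largely restricted to β cells, Pdx1 alone passed the test. Pdx1, the homeodomain factor that builds the pancreas and later activates the insulin gene, measured 10.79, 10.88 and 11.04 in control islets and 10.50, 10.46 and 10.34 in Sox17-GOF islets. The lowest control array stood clear of the highest Sox17-GOF array, and the within-group SDs were 0.13 and 0.08 (n = 3 each). The log2 difference was -0.47 (SE 0.09, 95% interval -0.68 to -0.25, limma adjusted p = 0.0327), or 72.4% of the control level. An exact permutation test of Pdx1 alone gave p = 0.10 (two-sided), which is the smallest that 3 arrays against 3 can reach. The call of Pdx1 ended whichever 1 of the 6 arrays was left out, with an adjusted p between 0.0549 and 0.113 from limma and a log2 difference between -0.52 and -0.40.

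Nkx6-1, which keeps β cells from taking on the features of other islet cells, measured 8.44, 8.32 and 8.35 in control islets and 8.45, 8.04 and 8.09 in Sox17-GOF islets. Sox17-GOF replicate 1 was the highest of all 6 arrays and the other 2 Sox17-GOF arrays were the lowest, so the groups overlapped. The log2 difference of -0.17 (SE 0.12, limma adjusted p = 0.494) did not pass, with a 95% interval from -0.45 to 0.10. Mafa, a basic leucine zipper activator of insulin transcription in mature β cells, measured 6.93, 6.99 and 6.92 in control islets and 6.93, 6.91 and 6.96 in Sox17-GOF islets. The groups overlapped, at a level not far above the array medians of 6.31 to 6.41, and it is not known that this probe set read above background. The log2 difference was -0.01 (SE 0.07, 95% interval -0.17 to 0.15, limma adjusted p = 0.958), which describes the probe set and sets no bound on a change of Mafa RNA. Whether the changes of 2 factors differed from each other was not tested.

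Foxo1, the forkhead factor controlled by insulin signalling, had the largest log2 difference of the 10. It measured 8.56, 8.52 and 8.64 in control islets and 8.30, 7.90 and 8.0 in Sox17-GOF islets. The control arrays were close together, and Sox17-GOF replicate 1 lay between them and the other 2 Sox17-GOF arrays. The log2 difference was -0.51 (SE 0.11, 95% interval -0.77 to -0.25, limma adjusted p = 0.0475), or 70.4% of the control level, and 453 of the 19937 genes had a more negative one. Without Sox17-GOF replicate 1 the difference was -0.62 (adjusted p = 0.0169). Without any other 1 array the call of Foxo1 ended, with an adjusted p of up to 0.143.

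Neurod1 and Rfx6, both needed for the formation and function of endocrine cells, lay just outside the threshold. Neurod1, whose protein binds E-boxes such as that of the insulin promoter, measured 10.02, 10.08 and 10.11 in control islets and 9.81, 9.59 and 9.44 in Sox17-GOF islets. The 3 control arrays were close together and above every Sox17-GOF array. Its log2 difference of -0.46 (SE 0.10, 95% interval -0.70 to -0.21) had a limma adjusted p = 0.0519. The value passed under 6 of the 15 alternatives, with the lowest adjusted p, 0.0251, without Sox17-GOF replicate 1. Rfx6, a winged-helix factor, measured 10.15, 10.33 and 10.08 in control islets and 9.94, 9.75 and 9.63 in Sox17-GOF islets, again without overlap. Its log2 difference was -0.41 (SE 0.11, 95% interval -0.66 to -0.16, limma adjusted p = 0.0807), and it passed under none of the 15 alternatives.

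The other 4 factors of several hormone cell types had smaller differences. Insm1, a zinc finger factor of neuroendocrine cells, measured 8.53, 8.53 and 8.70 in control islets and 8.45, 8.39 and 8.47 in Sox17-GOF islets. The groups did not overlap, but the gap was small beside the spread, and the log2 difference of -0.15 had a 95% interval from -0.34 to 0.04 (limma adjusted p = 0.371). Isl1, a LIM homeodomain factor that keeps endocrine cells alive and mature, measured 10.90, 11.01 and 10.75 in control islets and 10.92, 10.55 and 10.71 in Sox17-GOF islets. Nkx2-2, a homeodomain factor that specifies β cells and represses the genes of other islet cells, measured 8.70, 8.53 and 8.81 in control islets and 8.64, 8.69 and 8.34 in Sox17-GOF islets. In both genes the groups overlapped, with log2 differences of -0.16 for Isl1 (95% interval -0.43 to 0.11) and -0.12 for Nkx2-2 (95% interval -0.40 to 0.15). Pax6, a paired domain factor that activates several hormone genes, measured 10.47, 10.52 and 10.44 in control islets and 10.60, 10.39 and 10.32 in Sox17-GOF islets. The highest and the lowest arrays of Pax6 were both Sox17-GOF, and its log2 difference of -0.04 had a 95% interval from -0.25 to 0.18. The sign turned to 0.01 with quantile normalization. The intervals of all 4 include differences of -0.25, so modest falls were not detectable with 3 arrays a group.

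**Figure D2:**
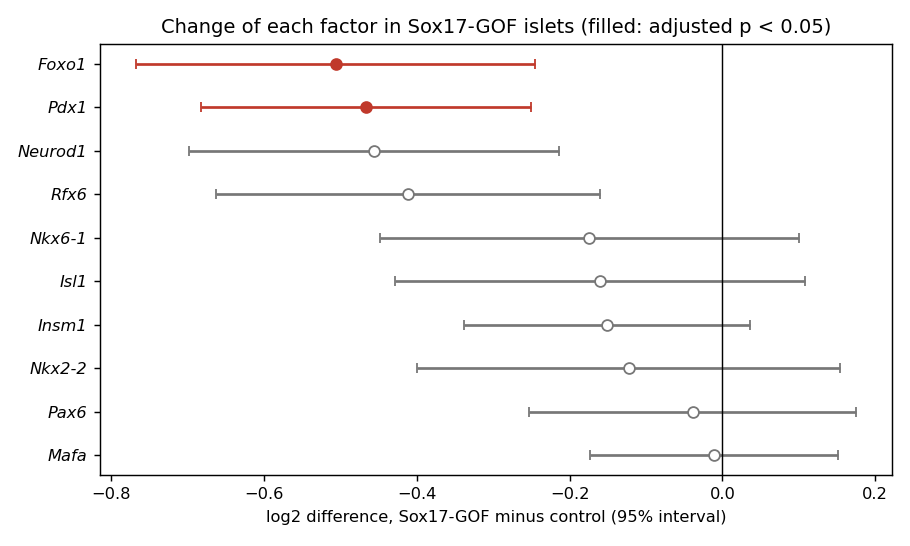
Log2 difference of each factor, Sox17-GOF minus control islets (3 arrays each), with its 95% interval from limma; filled red points have an adjusted p under 0.05. Foxo1, Pdx1, Neurod1 and Rfx6 lie between -0.51 and -0.41 with intervals below 0, and the intervals of the other 6 include 0.

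The arrays of the Sox17-GOF group were not alike in these genes. Sox17-GOF replicate 1 was the highest of its group for 7 of the 10 factors and the lowest for none. The acinar markers moved with this array: their summed level was 14.48 on the log2 scale in Sox17-GOF replicate 1, and between 15.15 and 15.67 on the other 5 arrays. Of 8 measured acinar genes, 7 did not pass and 1 was lower, as were 2.44% of all genes. The acinar gene called was Bhlha15, a transcription factor of secretory cells (log2 difference -0.64, limma adjusted p = 0.0312). Its call ended without Sox17-GOF replicate 1 or any 1 control array (adjusted p of up to 0.116). The part of acinar RNA in the levels of the factors was not tested. Without Sox17-GOF replicate 1 the log2 differences were -0.50 for Pdx1, -0.55 for Neurod1, -0.62 for Foxo1 and -0.49 for Rfx6. This array was the highest of its group for each of these genes, so leaving it out had to move each difference further from 0.

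Markers of the other islet hormone cells showed no change that passed. Of 10 measured α cell markers, none passed in either direction, and their summed level was from 14.51 to 14.64 on the control arrays and from 14.47 to 14.58 on the Sox17-GOF arrays. Gcg, the glucagon gene, had a log2 difference of -0.10 (95% interval -0.31 to 0.12). The same held for 8 markers of δ, PP and ε cells, whose sums ran from 14.97 to 15.12 on the control arrays and from 14.80 to 15.14 on the Sox17-GOF arrays. Sst, the somatostatin gene, had a log2 difference of -0.03 (95% interval -0.31 to 0.26) and Ppy, the pancreatic polypeptide gene, of -0.03 (95% interval -0.25 to 0.18). The levels of all 3 hormone genes overlapped between the groups. They lie at the bright end of the arrays, with 1 gene of 19937 brighter than Gcg, 5 than Ppy and 45 than Sst, and they weigh heavily in these linear sums. Saturation was not tested, so neither the intervals nor the sums bound a change of the RNA.

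Markers of cells from outside the endocrine islet were measured as well. Of 10 endothelial markers 1 was lower, Kdr, the main receptor of VEGF (log2 difference -0.68, limma adjusted p = 0.0160), as were 2.44% of all genes. The list went both ways, with a median log2 difference of 0.12 and a lower mean in 3 of the 10. On every Sox17-GOF array 2 of them, Kdr and Flt1, were below every control array, as were 14.2% of all genes. Another 2, Pecam1 and Eng, were above every control array, as were 11.3% of all genes. The summed endothelial level ran from 11.19 to 11.28 on the control arrays and from 11.11 to 11.21 on the Sox17-GOF arrays. The call of Kdr had a limma adjusted p of up to 0.0599 when 1 array was left out, and was lost without control replicate 1, without control replicate 3 and without Sox17-GOF replicate 2. No marker passed among 6 of duct, 9 of stellate cells and fibroblasts, 8 of leukocytes and 5 of Schwann cells and glia. The summed stellate and fibroblast level ran from 10.18 to 10.71 on the control arrays and from 10.62 to 11.08 on the Sox17-GOF arrays, and 5 of its 9 genes were higher on every Sox17-GOF array, as were 11.3% of all genes. The leukocyte sum ran from 10.02 to 10.77 and from 9.98 to 10.32. The duct sum ran from 10.98 to 11.02 and from 10.76 to 11.25, and the Schwann and glial sum from 8.36 to 8.37 and from 8.40 to 8.54. Of these 5 sums, that of the Schwann and glial genes was the one that did not overlap between the groups. The part of these cells in the levels of the factors was not tested.

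**Figure D3:**
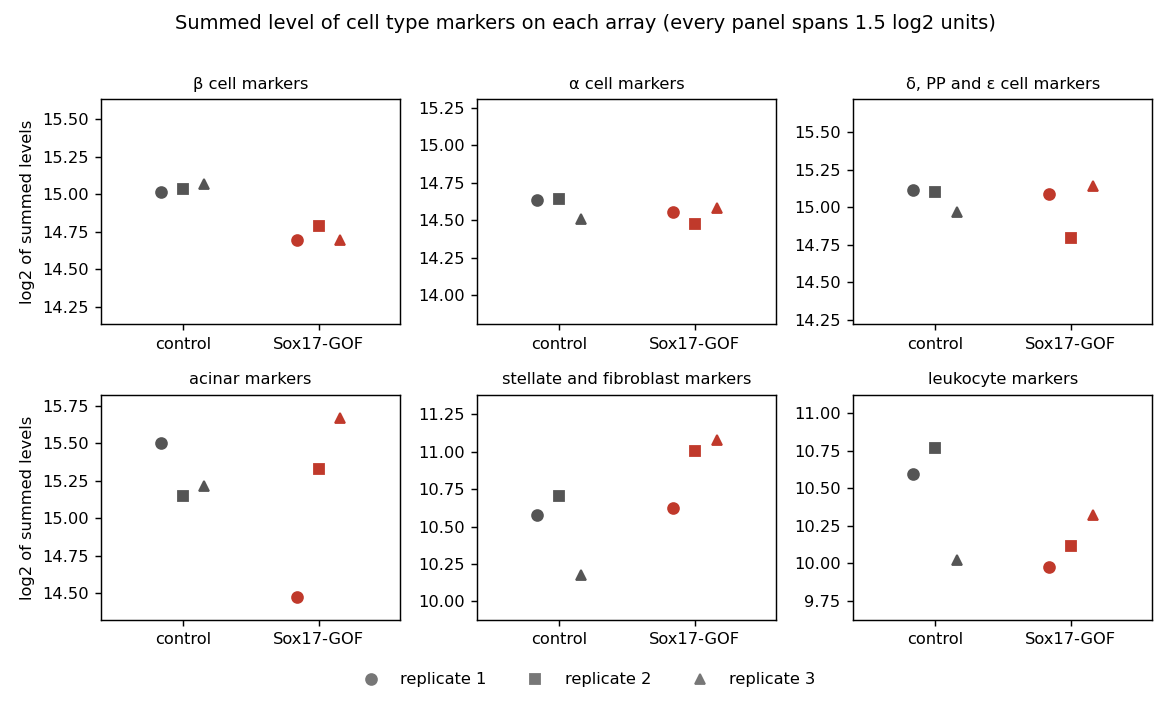
Summed level of 6 lists of cell type markers on each array, as the log2 of the summed linear values (control in grey, Sox17-GOF in red, symbols by replicate number; every panel spans the same range). β cell markers are lower on all 3 Sox17-GOF arrays, and Sox17-GOF replicate 1 has the lowest acinar sum, 14.48.

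The genes that these factors serve were then examined, from a list of mature β cell genes of which many are textbook targets of PDX1, MAFA, NEUROD1, NKX6-1 or RFX6. Of 27 measured genes, 11 were lower, 16 did not pass and 0 were higher, while 5.21% of all genes were called in either direction. The lower share of all genes was 2.44%, and the median log2 difference of the 27 was -0.35. Every Sox17-GOF array was below every control array for 17 of the 27 (14.2% of all genes) and above for 3 (11.3% of all genes). These 3 were Rgs16 (log2 difference 0.71, limma adjusted p = 0.0833), Nnat (0.47, adjusted p = 0.234) and Pcsk1 (0.46, adjusted p = 0.0533). Ppp1r1a, an inhibitor of a protein phosphatase, had a log2 difference of -1.64 (SE 0.11, limma adjusted p = 0.000606). The log2 difference was -1.15 for Fkbp1b, a binding protein of calcium release channels, -1.07 for Gipr, the GIP receptor, and -1.03 for Ucn3, a peptide of mature β cells. All 4 had every Sox17-GOF array below every control array. The differences of the 11 called genes ran from -1.64 to -0.58. Passing the threshold favours large differences, so these 11 do not compare the list with Foxo1 (-0.51) and Pdx1 (-0.47). The median log2 difference was -0.35 over the 27 genes and -0.17 over the 10 identity factors, and whether the lists differed was not tested.

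The hormone genes of the β cell did not pass. Ins2, the insulin gene that PDX1, NEUROD1 and MAFA activate, measured 13.03, 13.12 and 13.10 in control islets and 13.02, 13.12 and 13.08 in Sox17-GOF islets. Its log2 difference was -0.01 (95% interval -0.18 to 0.16). Iapp, the islet amyloid polypeptide gene and another target of PDX1, had a log2 difference of -0.09 (95% interval -0.26 to 0.08, limma adjusted p = 0.599). Both probe sets also lie at the bright end, with 33 genes brighter than Ins2 and 6 brighter than Iapp, and the same limit holds for their intervals and for the β cell sum. Of 8 β cell markers, 5 were lower and 0 were higher, and over all genes 2.44% were lower and 2.77% higher. All of these markers but Ffar1 were also in the list of mature β cell genes, so the lists do not give separate results. The summed level of the 8 markers ran from 15.01 to 15.07 on the control arrays and from 14.70 to 14.79 on the Sox17-GOF arrays. The 4 of these with the largest difference were Ucn3, Slc2a2, the glucose transporter of β cells (-1.01), Ffar1 and G6pc2, a glucose-6-phosphatase of islets (-0.74). Ffar1, a fatty acid receptor, had a log2 difference of -0.79 with a limma adjusted p = 0.0494. That call was lost without any 1 control array, Sox17-GOF replicate 2 or replicate 3, with an adjusted p of up to 0.164, and the call of G6pc2 was lost without Sox17-GOF replicate 1 and without each control array (up to 0.0780).

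**Figure D4:**
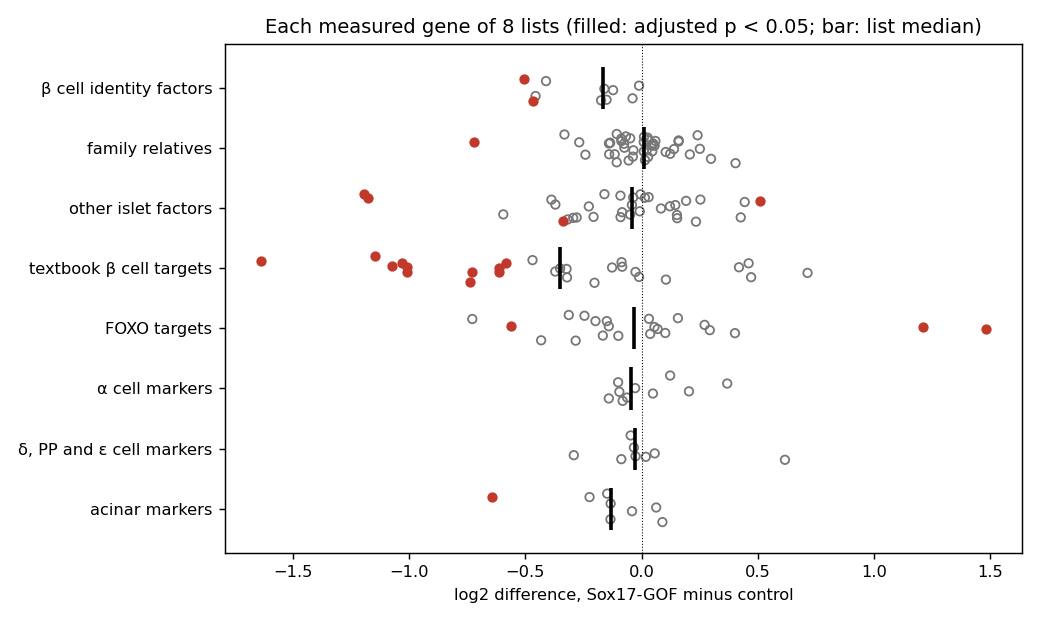
Log2 difference, Sox17-GOF minus control islets, of each measured gene of 8 lists; filled red circles have an adjusted p under 0.05 from limma and a black bar gives each list's median. The β cell identity factors lie between -0.51 and -0.01, and the textbook β cell targets run from -1.64 to 0.71.

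Genes commonly given as targets of FOXO factors gave calls in both directions. Of 22 measured, 1 was lower, 2 higher and 19 did not pass, with a median log2 difference of -0.03. Over all genes, 2.44% were called lower and 2.77% higher. Txnip, which binds thioredoxin and is a known glucose-induced gene of β cells, measured 10.15, 10.25 and 10.08 in control islets and 11.18, 12.23 and 11.51 in Sox17-GOF islets. On the log2 scale it rose by 1.48 (SE 0.24, limma adjusted p = 0.0154), although the call ended without any 1 control array (adjusted p of up to 0.0645). Ccng2, an atypical cyclin of resting cells, rose by 1.21 (SE 0.14, adjusted p = 0.00472). Bnip3, a mitophagy receptor, fell by 0.56 (SE 0.09, adjusted p = 0.0166); its call too ended without any 1 control array (adjusted p of up to 0.0801).

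The closest relatives of the factors, by family, were measured too. Of 43 measured relatives, 42 did not pass and 1 was lower, with a median log2 difference of 0.01. This is near the share of all genes called lower, 2.44%. The relative called was Cdx4, a ParaHox relative of Pdx1 (log2 difference -0.72, SE 0.13, limma adjusted p = 0.0257). Its group means, 5.80 in control and 5.07 in Sox17-GOF islets, were below the array medians of 6.31 to 6.41. It is not known that this probe set read above background. The call of Cdx4 ended without any 1 control array, Sox17-GOF replicate 2 or replicate 3 (adjusted p of up to 0.109). Foxo6 and Foxo3, paralogues of Foxo1 named here after their values were seen, were lower on every Sox17-GOF array without passing, with log2 differences of -0.27 (adjusted p = 0.0778) and -0.24 (adjusted p = 0.205). The remaining paralogue, Foxo4, overlapped between the groups (log2 difference -0.08). Neurog3, the progenitor factor upstream of Neurod1, had a log2 difference of -0.33 (adjusted p = 0.417).

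Among 33 other measured transcription factors of islets, 3 were lower, 1 was higher and 29 did not pass, with a median log2 difference of -0.04. The shares over all genes were 2.44% lower and 2.77% higher. Mlxipl, which encodes the glucose-sensing factor ChREBP, measured 8.69, 8.88 and 8.70 in control islets and 7.29, 7.72 and 7.68 in Sox17-GOF islets, a log2 difference of -1.19 (SE 0.13, limma adjusted p = 0.00363). Tox3, an HMG-box factor, had a log2 difference of -1.18 (SE 0.12, adjusted p = 0.00332), and Stat5b, a mediator of growth hormone and prolactin signals, of -0.34 (SE 0.07, adjusted p = 0.0386). Both Mlxipl and Tox3 had a larger difference than any of the 10 identity factors. Meis1, a homeodomain partner of other homeodomain factors, was higher by 0.51 (SE 0.09, adjusted p = 0.0194). The call of Stat5b ended without any 1 of the 6 arrays (adjusted p of up to 0.123), and that of Meis1 without any 1 control array, Sox17-GOF replicate 1 or replicate 2 (up to 0.0683). Foxa2, which binds the Pdx1 gene, was named after its value was seen and had a log2 difference of -0.23 (95% interval -0.46 to 0.0025, adjusted p = 0.267).

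The profile of Pdx1 over the 6 arrays, centred on its mean, was compared with that of every other gene by the root mean square difference. The 5 nearest genes were Fbxl16 (0.034), Gmppa (0.037), Fam135a (0.046), Kcnk16 (0.053) and Sesn2 (0.054), all on the log2 scale. The nearest of the other identity factors was Neurod1, at 0.081, with 57 genes closer to Pdx1. Pdx1 was in turn the nearest identity factor to Neurod1, while Neurod1 was the nearest to Foxo1 and Rfx6. These distances follow the difference between the groups as well as the spread within them.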

How the data were processed

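Islet RNA of 3 control and 3 Sox17-GOF samples was hybridised, 1 array per sample. The authors deposited log2 expression values after RMA (background correction, quantile normalization and summary per probe set). The methods place this step in GeneSpring, whereas Affymetrix Expression Console is the tool in the submitters' processing notes. Of 34760 probe sets, 21640 carried 1 gene symbol, 1321 several and 11799 none. The groups were compared on the 22961 named probe sets by limma 3.58.1 (R 4.3.3), without an intensity trend, with Benjamini-Hochberg adjustment over all of them and a threshold of 0.05. Members and lists were chosen with earlier results of these data known, so no list count is independent evidence. All members were named, with, of each other list, the called genes or the 4 with the largest change where more were called, the main hormone genes, and the 5 profiles nearest to Pdx1. On simulated arrays limma called 38 of 100 probe sets with a log2 change of 0.5, 97 of 100 with one of 1 and 12 of 22761 without one. Fewer probe sets were changed there than were called in the data. The adjustment was therefore stricter, and these counts do not give the power in the data. Alternatives changed the normalization, the variance model, the probe sets tested, the blocking or the test, or left out 1 array at a time. Promoters are RefSeq sequences on GRCm38.p6. The number of arrays limits the precision.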

Additional observations from a re-analysis of the deposited data

How the results depend on the processing

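Both calls among the factors sat close to the threshold. Pdx1 (log2 difference -0.47) missed it with median centring (limma adjusted p = 0.0540), with all probe sets (0.0779), with the replicate block (0.0925) and with the methods' t-test (0.143), and Foxo1 (-0.51) with the same 4 (0.0760, 0.106, 0.0776 and 0.191) and with an intensity trend (0.0501). With each of those 4 settings, 0 factors were called lower. Neurod1 passed with an intensity trend, without dim probe sets and with the probe sets of a gene averaged (-0.46 each), with array weights (-0.45) and with quantile normalization (-0.41). Pax6 turned to 0.0084 with quantile normalization.

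Over all named probe sets, 533 were called lower and 600 higher. All probe sets gave 245 and 313, the replicate block 286 lower and the adjusted t-test 29 and 42. The last counts are not those of the study, whose methods name no adjustment for this test. Family relatives called were 0 with all probe sets and with the adjusted t-test, and other islet factors 2 and 0. With the adjusted t-test 2 mature β cell genes and 0 FOXO targets were called.

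Leaving out 1 array at a time gave 139 to 446 lower and 246 to 639 higher probe sets, 0 to 2 factors, 0 to 1 relatives, 2 to 4 other islet factors, 8 to 13 mature β cell genes and 1 to 4 FOXO targets. The log2 difference ran from -0.52 to -0.40 for Pdx1, -0.55 to -0.37 for Neurod1 and -0.62 to -0.42 for Foxo1. It ran from -0.025 to 0.011 for Mafa, above 0 without control replicate 2, and from -0.12 to 0.018 for Pax6, above 0 without Sox17-GOF replicate 3.

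Deviations of same-numbered arrays correlated at 0.046, -0.035 and -0.054, and 1 of 3 control arrays matched its own number best, so the numbers were not taken as pairs.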

Other observations

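Endocrine progenitor markers were measured for 6 of 8 genes, and 0 passed in limma. Aldh1a3, an enzyme of retinoic acid synthesis, measured 6.77, 6.39 and 8.39 in control islets and 8.46, 9.20 and 8.45 in Sox17-GOF islets. All Sox17-GOF arrays were above all control arrays, but control replicate 3 was close to them, and the log2 difference of 1.52 had a limma adjusted p = 0.140. It was named after its values were seen.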
